A study of Mus musculus with 35 samples.

Results

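Of the 13045 loci that the PacBio long-read (Iso-seq) annotation of mouse tissues defined and counted, 565 were paired with 2 or more different ENSEMBL genes in the deposited map of genes to loci, and these joined loci are described here. Another 12278 loci were paired with 1 gene and 202 with none, and all of them stood among 55356 genes and loci in the count table. The 565 loci took in 1094 different ENSEMBL genes, of which 1082 were present in GENCODE release M21, and none of the 1094 had a count row of its own. A joined locus therefore gives 1 count, shared by those of its genes whose exons it covers. The choice rested on the map alone and on no measured level. Most joined loci, 489, held exactly 2 genes, 52 held 3, 18 held 4, and 1 locus each held 5, 8, 9, 10, 17 and 24.

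The counts came from rRNA-depleted Illumina libraries of tissues from adult C57BL/6J mice, which carried no transgene or treatment that the labels name. Brain, cerebellum, heart and colon were sampled in females and males, and ovary and testis in 1 sex each, with 3 libraries per tissue and sex except male heart with 2. Iso-seq was run on a pool of somatic tissues and on the gonad of each sex, in 6 runs, so that an Iso-seq transcript could not be assigned here to 1 somatic tissue. No source used here says that the libraries of a group came from separate animals, so the p-values measure the spread between these libraries, which may be technical. Because each library is bulk tissue, fewer cells of a type and less RNA per cell cannot be told apart in any value given here.

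Neighbouring genes on 1 strand are usually separated by cleavage and polyadenylation of the upstream transcript. Where transcription passes that end and splicing or uncut sequence links both genes, the product is called a read-through or conjoined transcript, and reference annotations give some of these a gene name of their own. Another kind of joined locus is a cluster such as the protocadherins or the UDP-glucuronosyltransferases Ugt1a, in which many variable first exons, each annotated as a gene, splice to shared constant exons. Mitochondrial genes are yet another kind, since they lie end to end and are transcribed together as long precursors that are later cut.

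The most direct evidence for a joined locus in the annotation was an exon junction that links 2 genes that do not overlap in the reference. The junctions of 7 such loci with high tissue means are shown as 15 bases on each side, from the GENCODE M21 transcripts on GRCm38, and those from Fam71e2 on were added after their values were seen. Lower case marks the end of the exon in the upstream gene and capitals mark the start of the exon in the downstream gene.
Tlcd1 to Aldoc: ggcggcccgcggcagATAGCCCAGAAGAGA
Akr1a1 to Nasp: gtgcccatgattacgGCAGTGTTCTGCCCA
1700003E16Rik to Dctn1: agtcacgaaggctcgACGCCGAGTGGCAGC
Fam71e2 to Cox6b2: ctgtgtaccccgactCCCTCATTCTCAAAC
Ttll13 to Ngrn: cttcatgagtatcggCGCTTTGAAACGTCA
Cbx6 to Nptxr: actttcctcctaaagCAGGAGCTCCCAGCC
Ankrd39 to Ankrd23: ggctgcccttgaaggGTCACGCTGGAGTTC

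The junction from Tlcd1 to Aldoc (PB.1979, plus strand) removed the intron chr11:78178763-78325747, which is 146985 bases long, and ran from a 5′ UTR exon into a coding exon. Neither of its splice sites is a reference site of its gene, which also holds for the junctions of PB.10568 and PB.78, and the other 4 junctions used reference sites on both sides. Each of the 7 rested on 1 Iso-seq transcript, and the bases at the intron ends were not read here. That from Akr1a1 to Nasp (PB.8539, minus strand, chr4:116627430-116637761) ran from a coding exon into a 5′ UTR. The junctions from 1700003E16Rik to Dctn1 (PB.10164, plus strand, chr6:83156591-83182523) and from Cbx6 to Nptxr (PB.4262, minus strand, chr15:79794476-79833511) linked coding exons with the reading frame kept. The Ttll13 to Ngrn junction (PB.11063, plus strand, chr7:80258823-80261820) also linked coding exons, and its frame was not kept. The Fam71e2 to Cox6b2 junction (PB.10568, minus strand, chr7:4753029-4753399) ran from a 3′ UTR into a 5′ UTR over an intron of 371 bases. The Ankrd39 to Ankrd23 junction (PB.78, minus strand, chr1:36536557-36539356) ran from a 3′ UTR into an exon of a noncoding transcript. Of these 7 junctions, only that of Cbx6 and Nptxr was itself present in the reference, as part of the read-through gene Npcd.

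Across all joined loci, 70 pairs of protein-coding genes, 7 of them mitochondrial, lay apart in the reference and were covered by 1 Iso-seq transcript once read-through genes were set aside, and these pairs were found in 65 loci. A direct splice from one gene to the other was present for 39 pairs, 25 were linked only within 1 uninterrupted exon, and 6 only through intermediate exons. The genes of a pair were separated by 1495 bases at the median, with 2974 for directly spliced pairs and 319 for pairs within 1 exon. The shortest distance was 2 bases, between Obsl1, a cytoskeletal adaptor, and Chpf, which polymerizes chondroitin, and the longest was 141058 bases, between Tlcd1 and Aldoc. Of the 39 spliced pairs, 17 had both ends in coding exons, and the frame was kept in 12 and not in 5. Another 8 ran from a coding exon into a 5′ UTR, and 8 began in a 3′ UTR. Both splice sites were reference sites of the genes in 23 pairs. Only 5 junctions were in the reference as such, those of Lypla1 and Tcea1 (through Gm37988), Soga3 and 9330159F19Rik (Gm49353), Cbx6 and Nptxr (Npcd), Palm2 and Akap2 (Pakap), and Cdhr4 and Ip6k1 (Gm20662). For 51 of the 70 pairs, the link rested on 1 Iso-seq transcript. The pair with the most such transcripts, 8, was Kctd13 and Sez6l2 (PB.11365), which was singled out after the counts were seen.

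Whether 1 Iso-seq transcript spans the paired genes was then asked of every joined locus. A transcript was counted as spanning where it shared at least 1 exon base, on the same strand, with 2 or more paired genes through bases that the other paired genes lack. By this measure 114 of 565 loci, 20.2% (95% Wilson interval 17.1 to 23.7, counting error only), had a spanning transcript, and in 84 of them it was a single transcript. In 30 loci the genes were covered by separate transcripts, in 301 the Iso-seq exons reached other paired genes only through bases shared between genes, and in 120 they fell on exons of at most 1 gene. The paired genes lay apart in the reference in 55 loci and overlapped in 500, while 10 loci had fewer than 2 of their genes in the reference. A spanning transcript was found in 54 of the 55 loci whose genes lay apart (98.2%, 90.4 to 99.7) and in 60 of the 500 with overlapping genes (12%, 9.44 to 15.1). The exception among the former was PB.4300 (Srebf2, 1500009C09Rik and Sept3), which had separate transcripts. Overlapping genes can lack bases of their own, which the measure requires, so the contrast between these shares is partly set by the measure. A read-through gene of the reference was among the paired genes of 284 loci, of which 23 (8.10%) had a spanning transcript, against 91 of 271 (33.6%) without one. A read-through gene can share the exons of the genes it joins, which leaves them fewer bases of their own under this measure. The 2 shares are therefore not comparable. PB.4262 with Npcd was placed under separate transcripts by this measure, and it had a spanning transcript once read-through genes were set aside. Over all joined loci, setting them aside gave 109 spanning loci.

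**Figure D1:**
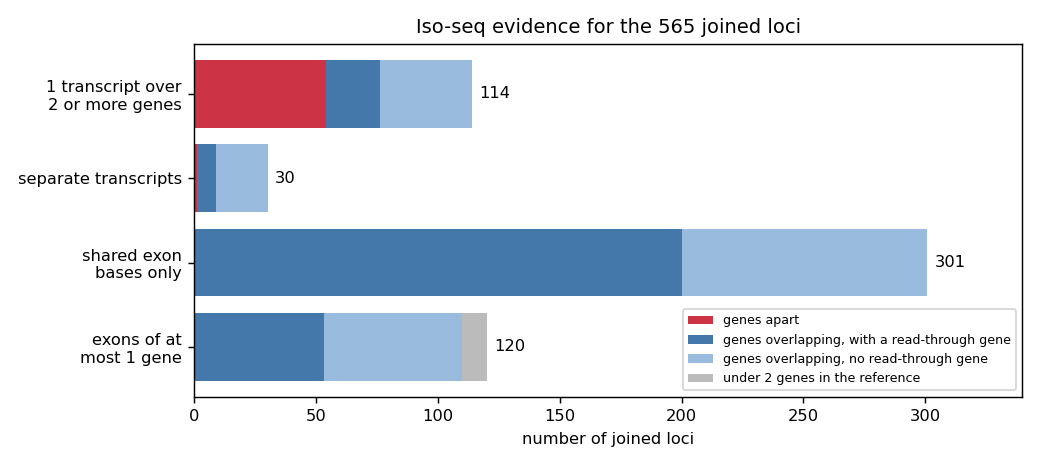
Number of joined loci (x axis) by the Iso-seq evidence for the join (y axis), with colours for loci whose genes lie apart, overlap with or without a read-through gene, or have under 2 genes in the reference. The 301 loci with shared exon bases only form the longest bar, and loci with genes apart are nearly all among the 114 with 1 transcript over 2 or more genes.

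In biotype, 543 joined loci linked protein-coding genes with each other, 9 linked lncRNAs, and 3 held a pseudogene with noncoding genes. All paired genes lay on the strand and chromosome of their locus. In 19 loci, genes with the same symbol but different identifiers were joined, for example Aldoa with Aldoa. The joined loci spanned 15744 bases at the median, against 20788 for loci paired with 1 gene, and had 3 transcripts against 2 and 3377 exon bases against 3261. The 114 loci with a spanning transcript were longer, with a median span of 23576.5 bases, 5 transcripts and 4572.5 exon bases. In level, the highest tissue mean was 20.4 FPKM at the median of joined loci (quartiles 9.87 and 45.2) and 22.7 FPKM for loci paired with 1 gene (10.9 and 49.6). FPKM is the count scaled to the library's total count and to the exon length of the locus. That length is the union of exons over all transcripts of the locus. Where several genes are counted, FPKM is thus not the level of any single gene and compares loci only roughly.

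**Figure D2:**
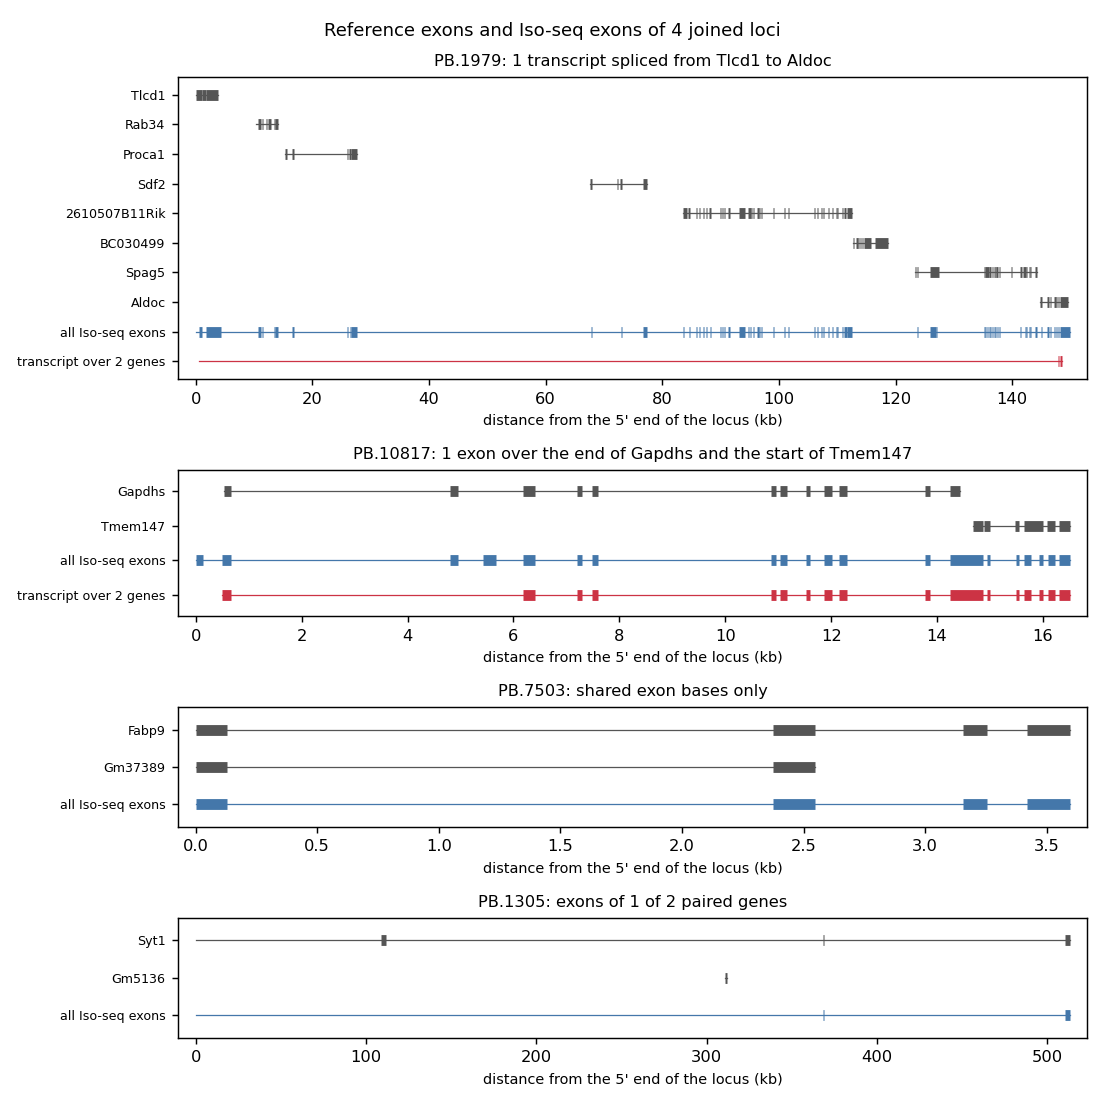
Exons of the reference genes (grey), all Iso-seq exons of the locus (blue) and the spanning transcript (red) of 4 joined loci, against the distance from the 5′ end of the locus in kilobases. In PB.1979, which spans 149900 bases, the red transcript skips from Tlcd1 to Aldoc over an intron of 146985 bases, in PB.10817 1 exon covers the end of Gapdhs and the start of Tmem147, in PB.7503 the exons of Gm37389 lie within those of Fabp9, and in PB.1305 it lies on exons of 1 of 2 paired genes.

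Some genes reached a joined locus without any of their exon bases being counted. Among the 906 paired genes that are not read-through genes, 34 (31 of them protein-coding) had 0 exon bases inside any counted feature, so no count in the table measures them. They included Grin3a, a subunit of NMDA receptors, Cadps2, which primes dense-core vesicles, Hoxa3, a homeobox gene, Omp, the olfactory marker protein, and both Bmp8a and Bmp8b, which act in germ cell development. Together with these 34, 61 of the 906 genes had under 10% of their exon bases counted, and the median over the 906 was 68.5%. Conversely, 169 genes were paired with several loci.

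The most widely shared gene was Gm20388, whose reference span of 4434882 bases covered 35 Iso-seq loci, of which 30 were joined loci. In 28 of these the Iso-seq exons fell on exons of at most 1 gene, and in 2 Gm20388 was reached only through shared bases, so none had a transcript that reached bases of Gm20388 alone and bases of its partner alone. Each locus had a partner gene of its own. By total-count FPKM, a scale on which the order of tissues depends, the loci were highest in brain (7 loci), cerebellum (3), heart (2), colon (5), ovary (9) and testis (4). Gm42416 (span 887460 bases) was paired with 17 loci, all joined, which on the same scale were highest in brain (10), cerebellum (4) and ovary (3) and mostly held single Pcdhb genes. Gm37013 and Gm37388 were likewise paired with 17 loci each. Fgfr2, a receptor of fibroblast growth factors, had a reference span of 2960900 bases over 9 loci, 8 of them joined, and all 8 had exons of at most 1 gene.

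The 4 loci of Gm20388 that the naming rule reached were highest in 4 different tissues by total-count FPKM. Cox4i1 (PB.12216), a subunit of cytochrome c oxidase, had a heart mean of 2590.4 ± 694 FPKM (SD, n = 5), with a lowest library of 1819.8, a median of 2470.4 and a highest of 3702.3, and a testis mean of 342 FPKM. Tubb3 (PB.12257), a neuronal tubulin, lay between 131 and 183 FPKM with a median of 157 in the 6 brain libraries and between 83.6 and 154 in cerebellum, whereas heart averaged 0.465 FPKM. Dpep1 (PB.12247), a dipeptidase of epithelia, had 60.7 to 125 FPKM in colon with a median of 77.8, against 21.4 to 46.5 in heart and 0 to 0.138 in brain. Heart did not overlap any other tissue at Tubb3, where it was lowest, and colon stood apart at Dpep1 by total count but not with totals scaled by TMM, a between-library factor. Crispld2 (PB.12210) averaged 22.3 ± 6.15 FPKM in ovary (n = 3) and 1.22 ± 0.447 in brain (n = 6), but with TMM-scaled totals its highest mean was in heart, 21.6 ± 6.85 against 16.8 ± 5.46 FPKM in ovary. Against the mean of the other 5 tissues on the log2 scale, Cox4i1 was higher in heart by 2.62 ± 0.16 (SE, adjusted p = 1.4e-13), Tubb3 lower there with -5.52 ± 0.27 (2.8e-15) and Dpep1 higher in colon by 4.74 ± 0.18. Each of these tests is edgeR's quasi-likelihood test, Benjamini–Hochberg adjusted over the 29911 genes and loci that passed a filter on low counts, as are all adjusted p-values that follow.

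**Figure D3:**
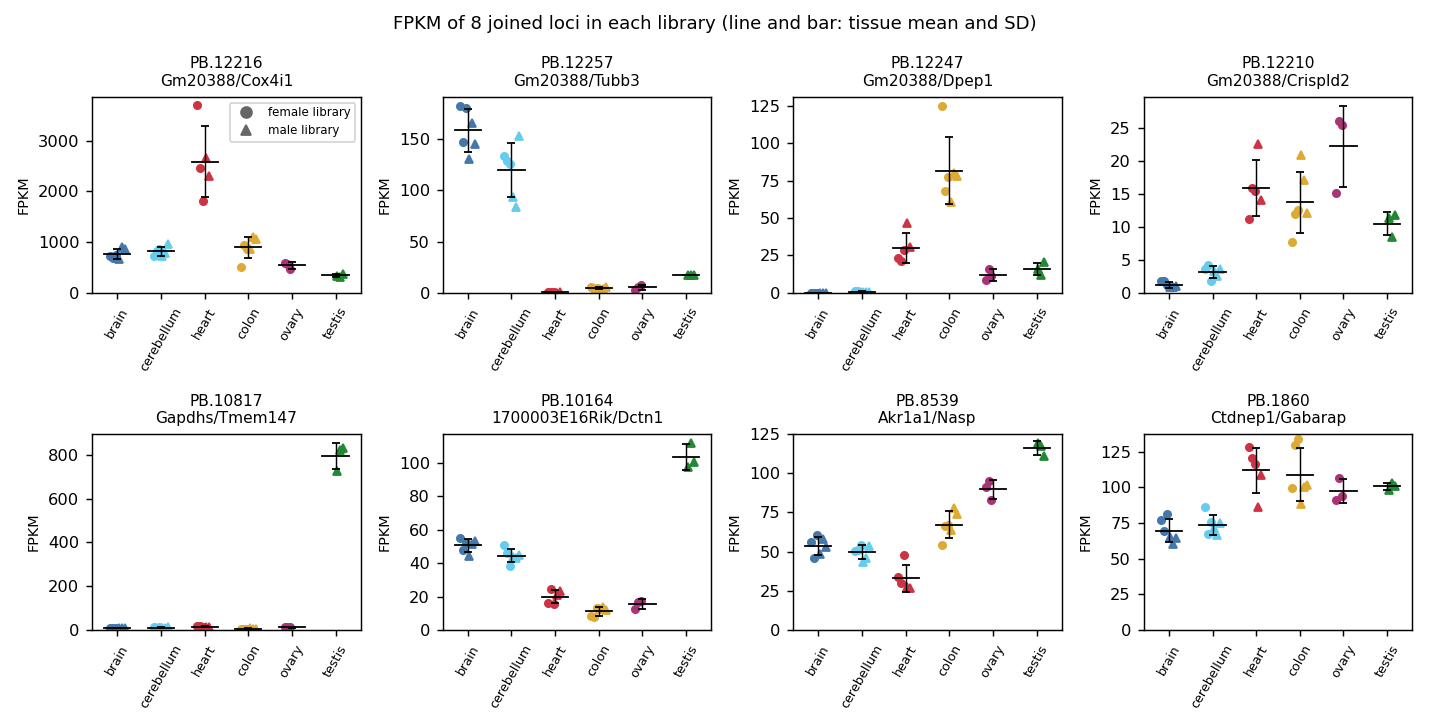
FPKM (y axis) of 8 joined loci in each library of the 6 tissues (x axis), with circles for female and triangles for male libraries and a line and bar for the tissue mean and SD. By total count the 4 loci paired with Gm20388 peak in heart, brain, colon and ovary (with TMM scaling Crispld2 peaks in heart), and Gapdhs/Tmem147 lies above 724 FPKM in testis and at or below 17.8 FPKM elsewhere.

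Largest in the number of genes joined were the clustered protocadherins, cell adhesion proteins that give neurons surface identities. PB.5772 (chr18:37685186-37841875, plus strand) took in 24 genes, those of the Pcdhg cluster with Gm42416, Gm37013 and Gm37388, and 3 of its 23 transcripts spanned several genes, with 4 genes on the one that covered most. Its brain libraries had 8.40, 9.26 and 11.2 FPKM as lowest, median and highest, and cerebellum averaged 11.0 ± 2.02 (n = 6), against 1.67 FPKM in testis. PB.5754 (chr18:37020089-37187658, plus strand) joined 17 genes, those of the Pcdha cluster with the same 3, through separate transcripts, with 8.49 to 11.1 FPKM in brain and 7.70 ± 0.675 in cerebellum. It averaged 2.47 ± 0.18 FPKM in testis (n = 3), 0.287 in colon, 0.129 in heart and 0.137 in ovary. At this Pcdha locus brain and cerebellum lay above the other 4 tissues without overlap, and brain was higher by 4.02 ± 0.12 on the log2 scale (adjusted p = 2e-20), whereas the Pcdhg locus was higher there by 1.53 ± 0.12.

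The 9 genes of the Ugt1a cluster, whose enzymes attach glucuronic acid to bilirubin and many drugs, were joined in PB.325 (chr1:88095063-88219003, plus strand) through 3 transcripts, none of which reached the own bases of more than 1 gene. The 6 colon libraries had 134, 173 and 208 FPKM as lowest, median and highest, and the 3 testis libraries 34.3, 40.3 and 54.7. Brain averaged 0.840 ± 0.191 FPKM. In heart, 4 libraries lay between 1.37 and 2.46 FPKM and female heart replicate 3 at 15.6. That library also had 695 FPKM of the fat marker Adipoq, against 0.0517 to 1.74 in the other 4 hearts, and 22.6 FPKM of the immune marker Ptprc, against 3.03 to 4.59, and the part of either in the value was not tested. Colon was higher by 5.58 ± 0.24 on the log2 scale (adjusted p = 1.5e-16) and testis by 3.59 ± 0.26.

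The mitochondrial locus PB.13055 (positions 1025 to 11544 of the plus strand) held 10 genes, from mt-Nd1 to mt-Nd4, which encode subunits of complexes I, IV and V. Of its 30 transcripts 9 spanned several genes, with up to 7 genes on 1 transcript. Its heart libraries had 5144.4, 9047.4 and 9811.8 FPKM as lowest, median and highest, colon 1796.3, 2675 and 4619, brain averaged 2003.5 ± 334 (n = 6) and testis 545 ± 50.2 (n = 3). No heart library overlapped another tissue. A second locus, PB.13056 (positions 11742 to 15288), linked mt-Nd5 and mt-Cytb over 579 bases between them in 7 of 14 transcripts, and heart again lay above all other tissues, from 3273.4 to 5956.7 FPKM. Heart was higher by 3.23 ± 0.18 at PB.13055 and by 2.72 ± 0.19 at PB.13056 on the log2 scale. These loci made up 6.57 to 12.3% of all counts in heart libraries and 0.670 to 0.814% in testis, and all joined loci together 9.90 to 16.2% in heart and 4.95 to 5.13% in testis.

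PB.1979 joined 8 genes, Tlcd1, Rab34, Proca1, Sdf2, 2610507B11Rik, BC030499, Spag5 and Aldoc, on chr11:78178142-78328041. Among its 48 transcripts, the most of any joined locus, 1 was spliced over the genes in between, with the junction given above. Cerebellum libraries had 160, 188 and 209 FPKM, brain 86.7, 94.1 and 111, and no other tissue mean exceeded 54.5. Aldoc, the brain form of the glycolytic aldolase, and Spag5, a spindle protein, share this 1 count with the rest, so the cerebellar difference of 1.88 ± 0.09 on the log2 scale (adjusted p = 1.3e-15) belongs to the sum of the genes counted there. BC030499 is not among them, since none of its exon bases was counted.

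Several loci with a link between genes that lie apart were abundant in 1 tissue. Gapdhs, the sperm-specific glyceraldehyde-3-phosphate dehydrogenase, and Tmem147, an endoplasmic reticulum membrane protein, lie 234 bases apart in PB.10817 and were linked by 1 exon in 1 of 10 transcripts. The 3 testis libraries had 724, 822 and 832 FPKM, and all others lay between 4.62 and 17.8. For Fam71e2 and Cox6b2 (PB.10568), the latter a testis subunit of cytochrome c oxidase, testis averaged 89.2 ± 4.56 FPKM, and for Ttll13, a tubulin glutamylase, and Ngrn (PB.11063) 86.2 ± 4.09 (both n = 3). On the log2 scale, testis was higher by 6.44 ± 0.12, 6.42 ± 0.12 and 4.55 ± 0.10 at these loci, with adjusted p of 3.2e-24, 3.3e-24 and 2.9e-23. The short reads were counted per locus, so how much of each level came from transcripts over both genes was not measured.

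Other linked loci were broader. Akr1a1, an aldehyde reductase, and Nasp, a histone chaperone (PB.8539), had 111, 118 and 119 FPKM in testis, 83.1, 91.1 and 95.2 in ovary, and 27.1 to 78.1 in the other libraries. Dctn1, the large subunit of dynactin, with 1700003E16Rik (PB.10164) had 97.3, 101 and 112 FPKM in testis, 44.0 to 55.2 in brain and 7.70 to 14.1 in colon. Both loci were higher in testis, by 1.33 ± 0.11 and 2.35 ± 0.15 on the log2 scale, and no testis library overlapped another tissue. Ctdnep1, a phosphatase of the nuclear envelope, and Gabarap, an autophagy protein (PB.1860), lay between 60.5 and 134 FPKM in all libraries, with means of 112 ± 15.8 in heart, 109 ± 18.4 in colon and 101 ± 2.36 in testis that do not differ beyond their spread. With TMM-scaled totals these means were 154 ± 41.9, 101 ± 24.0 and 117 ± 3.83 FPKM, and no tissue stood apart on either scale.

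The remaining linked loci with high levels peaked in somatic tissues. The 2 identifiers of Aldoa, the muscle aldolase (PB.11359), lie 38 bases apart and were linked in 4 of 13 transcripts, with 638, 927 and 1034.5 FPKM in heart and 454 to 564 in brain. Cbx6, a Polycomb protein, and Nptxr, a neuronal pentraxin receptor (PB.4262), averaged 67.7 ± 9.28 FPKM in brain (n = 6), which was higher by 3.18 ± 0.10 on the log2 scale (adjusted p = 4.4e-20). Ankrd39 and Ankrd23 (PB.78), the second an ankyrin repeat protein of muscle, averaged 65.6 ± 22.3 FPKM in heart (n = 5).

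**Figure D4:**
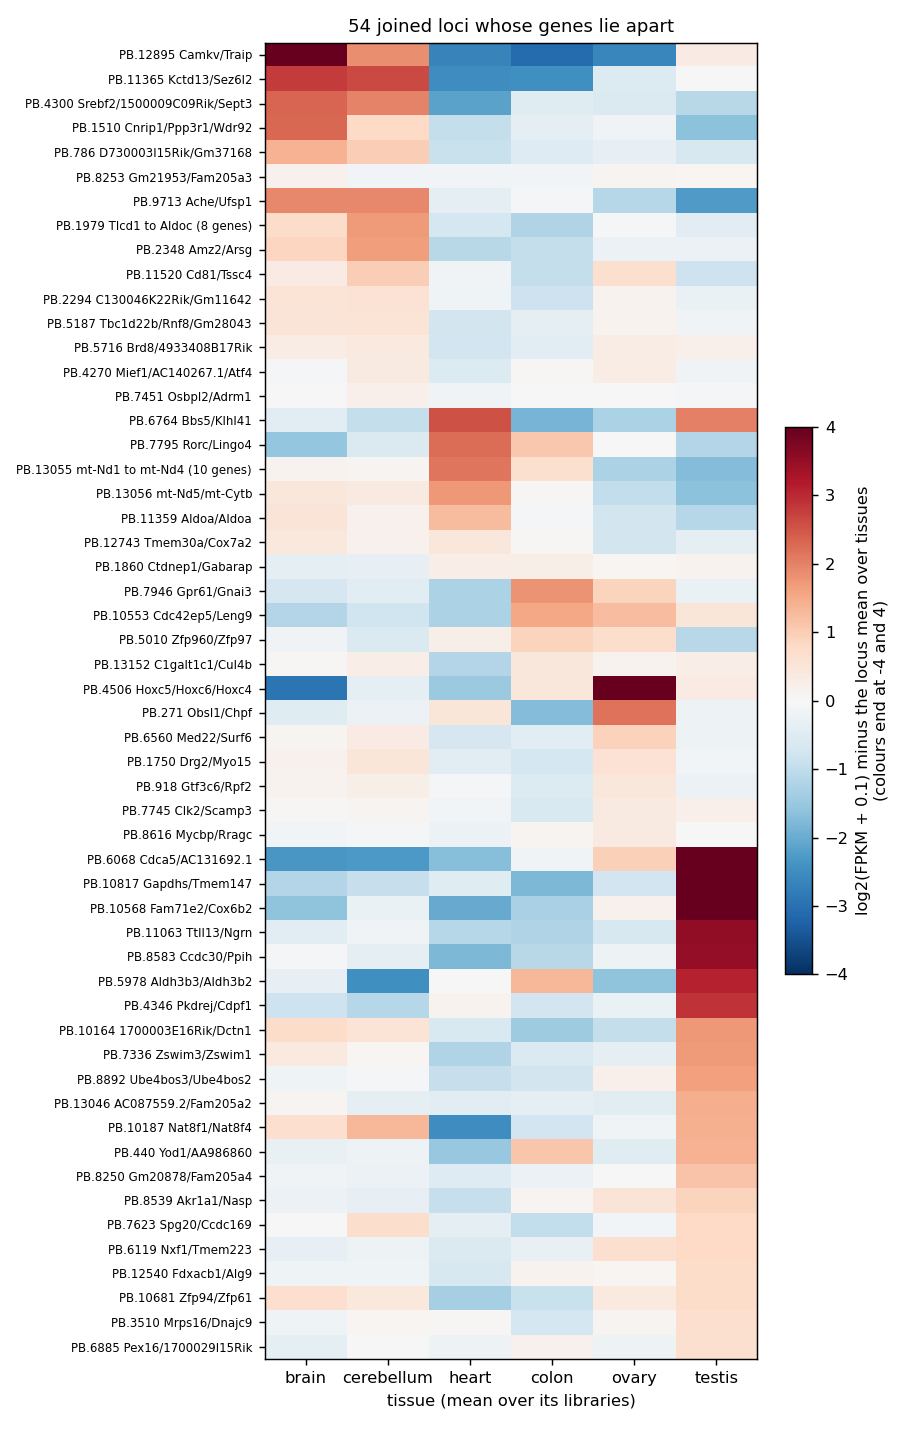
Tissue means of 54 of the 55 joined loci whose genes lie apart, as log2(FPKM + 0.1) minus the mean of the locus over the 6 tissues (colour scale from -4 to 4), ordered by the tissue with the highest value. Of the 54 loci shown, 21 had their highest mean in testis, and every tissue was the highest for some loci.

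By the tissue of the highest mean FPKM, joined loci divided into 148 for testis, 135 for ovary, 94 for brain, 65 for cerebellum, 62 for heart and 61 for colon. The order depends on scaling: with totals scaled by TMM, heart had 114 loci and ovary 51. Among loci paired with 1 gene, testis (3102 of 12264) and ovary (2918) also held the most by total count. In the tissue comparisons, each of which set 1 tissue against the mean of the other 5, 563 of the 565 loci were tested. The 2 others, PB.3471 (Gm26680 and Gm3466, 66 counts in all) and PB.8253 (Gm21953 and Fam205a3, 26 counts), had too few counts.

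Testis called the most joined loci, 456, or 81.0%, against 67.1% of all genes and loci tested, with 230 higher (40.4% of all features were) and 226 lower (26.7%). Colon followed with 424 (75.3% against 59.3%), 126 higher and 298 lower against 28.2% and 31.1% of all features, and heart with 419 (74.4% against 51.7%), 200 higher and 219 lower against 22.1% and 29.6%. Brain called 410 (72.8% against 56%), 223 higher and 187 lower against 33% and 23.1%. Cerebellum called 385 (68.4% against 52.8%), 207 higher and 178 lower against 30.8% and 22%, and ovary 336 (59.7% against 42.2%), 133 higher and 203 lower against 22.4% and 19.8%. Loci paired with 1 gene were called about as often as joined loci, with 79.7% in testis, 75.7% in colon, 72.7% in heart, 72.4% in brain, 68.9% in cerebellum and 59.3% in ovary. The median log2 difference of joined loci was -0.04 in testis, -0.47 in colon, -0.18 in heart, 0.08 in brain, 0.01 in cerebellum and -0.18 in ovary, and over all features tested 0.10, -0.38, -0.55, -0.10, -0.10 and -0.15. Under another scaling of the libraries (RLE), brain had 197 joined loci higher and 210 lower, and cerebellum 188 and 212, so neither tissue has a stable majority direction.

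**Figure D5:**
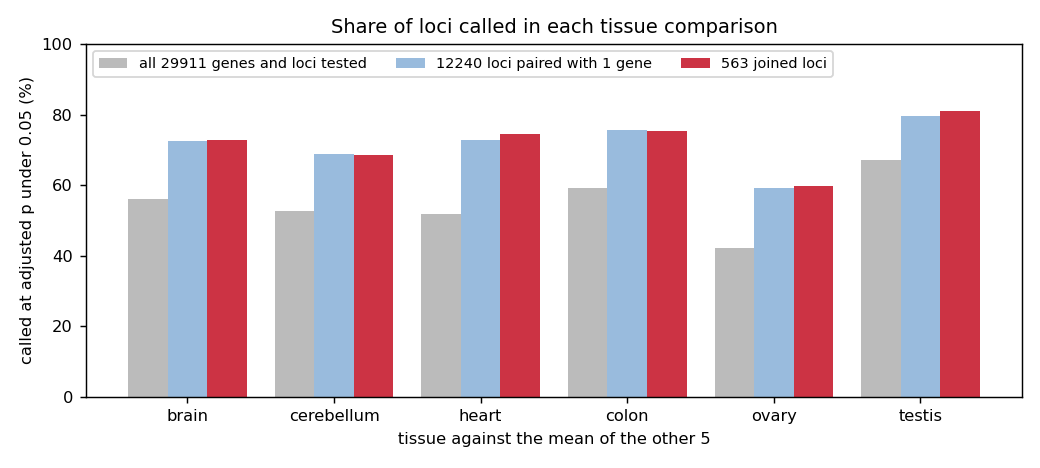
Share (%) called at an adjusted p under 0.05 in each tissue comparison (x axis) for all genes and loci tested (grey), loci paired with 1 gene (light blue) and joined loci (red). In each tissue the joined loci lie above all features and close to the loci paired with 1 gene, for example 81.0, 67.1 and 79.7% in testis.

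Overlap between libraries was judged on counts scaled to the total count. Testis set joined loci apart most often, with every testis library above all others in 130 loci (23.1%, against 23.3% of all features) and below in 83 (14.7% against 7.5%), or 149 (26.5% against 25.7%) and 61 (10.8% against 6.48%) with TMM scaling. Among the 54 tested loci whose genes lie apart, 31 were higher and 9 lower in testis, with a median of 0.52 on the log2 scale, and among the 301 with shared exon bases only 104 were higher and 140 lower. Over all features 40.4% were higher and 26.7% lower, and the difference between these sets of loci was not tested. PB.6309 and PB.7503 were among the loci with every testis library above all others. PB.6309 (chr19:42051812-42053628, plus strand) is 1 transcript over bases of Hoga1, a mitochondrial aldolase, and of 4933411K16Rik, with 1020.5, 1048.3 and 1150.5 FPKM in testis and at most 1.78 elsewhere (13.40 ± 0.23 on the log2 scale, adjusted p = 8.1e-25). PB.7503 (chr3:10193626-10197222, minus strand) holds Fabp9, a fatty acid-binding protein of sperm, with Gm37389 on shared bases, and had 1030.0, 1069.3 and 1152.4 FPKM in testis and at most 1.46 elsewhere. Kcnk4, a potassium channel, and Catsperz, a subunit of the sperm calcium channel (PB.6088), had 338, 352 and 359 FPKM in testis. Lower in testis without overlap were Praf2 with Gm45208 (PB.13073), at 1.05 ± 0.303 FPKM against 40.5 in brain, and the prion gene Prnp with Prn (PB.7123), at 10.9 ± 1.82 against 208.

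In heart, 34 joined loci lay above all other libraries (6.04%, against 3.43% of all features) and 36 below (6.39% against 2.86%), or 41 (7.28% against 4.22%) and 22 (3.91% against 1.86%) with TMM scaling. PB.10560 (chr7:4518307-4532594, minus strand) joined Dnaaf3, a dynein assembly factor, with Tnni3, cardiac troponin I, with 1 of 6 transcripts over both. Its female heart libraries had 2257.1, 1546.1 and 1030.5 FPKM and its male ones 1369.2 and 1589.9, against 21.7 to 25.1 in testis, 9.08 to 11.8 in ovary and at most 1.97 in the other tissues. Heart was higher by 9.86 ± 0.23 on the log2 scale (adjusted p = 3e-21). Cpt1b, which brings fatty acids into muscle mitochondria, with Gm44502 (PB.4378), had 80.0, 170 and 192 FPKM in heart and 54.5 to 56.2 in testis, with all other libraries at or under 1.67. Syt1, the calcium sensor of synaptic vesicles, was among the lowest in heart, with 0 to 0.0486 FPKM. The red cell marker Hba-a1 was also highest in heart, at 583 to 2038 FPKM against at most 346 elsewhere, as was Hbb-bs, and its part was not tested.

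In brain, 25 joined loci lay above all other libraries (4.44% against 4.93%) and 6 below (1.07% against 0.629%), and in cerebellum 18 lay above (3.20% against 2.69%) and none below (0.204% of all features did). With TMM scaling brain had 33 above (5.86% against 5.6%) and 7 below (1.24% against 0.592%). Cerebellum then had 14 above (2.49% against 2.12%) and 1 below (0.178% against 0.448%). Syt1 was counted in PB.1305 (chr10:108497651-109010946, minus strand) with Gm5136, a gene none of whose exon bases was counted. It had 159, 216 and 242 FPKM in brain, 38.3 to 55.6 in cerebellum and at most 3.25 elsewhere (brain higher by 7.32 ± 0.12, adjusted p = 9.7e-25). Syn2, another synaptic vesicle protein, with Gm17482 (PB.10316) averaged 111 ± 7.98 FPKM in brain (n = 6), and Gm17482 had no exon base counted either. In cerebellum, Pld5 with Rbm8a2 (PB.705) had 12.7, 14.1 and 20.7 FPKM against 2.39 to 3.38 in brain (6.08 ± 0.14, adjusted p = 3e-22), and these values measure Pld5, since no exon base of Rbm8a2 was counted. Neurod1, a transcription factor of granule neurons, with Cerkl (PB.6819) had 18.7, 31.3 and 35.0 FPKM in cerebellum and 1.70 to 3.31 in brain, and no count in any testis library, so that no fold is given. The choroid plexus markers also differed between these tissues, with Ttr at 1007 to 3816 FPKM in cerebellum and 15.7 to 1535 in brain and Folr1 at 9.85 to 33.0 and 0.590 to 13.2, and their part in the cerebellar values was not tested.

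In colon, 26 joined loci lay above all other libraries (4.62% against 6.52%) and 29 below (5.15% against 1.91%), or 23 (4.09% against 6.44%) and 41 (7.28% against 3.32%) with TMM scaling. Ugdh, which makes the glucuronic acid donor used by Ugt1a enzymes, with Gm43552 (PB.9257) had 236, 296 and 411 FPKM in colon and 3.33 to 33.2 elsewhere (4.66 ± 0.12 on the log2 scale, adjusted p = 1.7e-21). Tmc4 with Leng1 (PB.10546) averaged 65.7 ± 13.1 FPKM in colon and at most 2.29 in the other tissue means. Among the loci below all other libraries in colon were Katnal1, a microtubule-severing enzyme, with Gm42791 (PB.9849, 1.75 ± 0.231 FPKM) and Tarsl2 with Tm2d3 (PB.11010, 2.01 ± 0.372), named by smallest adjusted p. The smooth muscle marker Myh11 lay at 330 to 811 FPKM in colon and at most 148 elsewhere, and Acta2 at 1665 to 3678 against at most 1744, and their part in the colon values was not tested.

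In ovary, 54 joined loci lay above all other libraries (9.59% against 8.31%) and 2 below (0.355% against 0.445%) by total count, but with TMM-scaled totals 15 lay above (2.66% against 3.58%) and 16 below (2.84% against 1.33%). Ifitm2, an interferon-induced membrane protein, with Gm45717 (PB.11484) averaged 433 ± 39.4 FPKM in ovary (n = 3), higher by 2.34 ± 0.13 on the log2 scale. Obsl1 with Chpf (PB.271, chr1:75474575-75505732, minus strand), the pair only 2 bases apart, had 18.7, 22.7 and 25.4 FPKM there (2.14 ± 0.14, adjusted p = 6e-12). The 2 loci below all other libraries on both scales were Zfp652 with the skeletal phosphatase Phospho1 (PB.2129), at 1.88 ± 0.628 FPKM against 80.1 in testis, and Pfkfb2, a regulator of glycolysis, with Gm29427 (PB.439), at 4.08 ± 0.339. Rpl13a with Gm45713 (PB.10914), among the 3 most abundant loci with a read-through gene, had 1221.5, 965 and 715 FPKM in ovary and 137 to 157 in testis, and its ovary libraries stood apart by total count but not with TMM scaling. Acta2 lay at 841 to 1744 FPKM in ovary and at most 134 in tissues other than colon. Myh11 lay at 78.5 to 148 and at most 22.6, and the part of smooth muscle in the ovary values was not tested.

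The 3 loci that held a pseudogene were low. PB.12460 (3110039I08Rik, Gm49317, Gm28119 and Gm8707, with 1 spanning transcript) averaged 4.21 ± 0.558 FPKM in brain, 5.34 ± 0.766 in cerebellum and 0.383 in testis, and PB.2563 (Zfp125, 3110053B16Rik and Gm10478) 3.66 ± 0.306 in brain. PB.3471 reached at most 1.01 FPKM in testis. The pseudogenes Gm10478 in PB.2563 and Gm3466 in PB.3471 had none of their exon bases counted, so these 2 levels do not measure them.

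Few joined loci were called for a sex difference. In brain and in cerebellum edgeR called 0 joined loci (0.0368% and 0.0301% of all features were called), with 35 and 11 at an unadjusted p under 0.05, and DESeq2 also called 0 in both. Heart called 1 (0.0635% of all features) and colon 3 (0.324%), with 48 and 57 at an unadjusted p under 0.05. In heart, PB.9188, which joins 2 identifiers of Jakmip1 with Gm1043, had 16, 8 and 37 counts in the female libraries and 1 and 0 in the male ones, all at most 0.293 FPKM. Pooled over libraries, the female level was 33.4 times the male, with an exact interval of 5.78 to 1341.5 that covers counting error only. Its adjusted p was 0.00457, and DESeq2 gave 0.0807. Without male heart replicate 1 or 2 it was 0.0721 and 0.288, but these fits leave 1 male heart library, which is assumed to vary like the other groups. Of the female counts, 37 were in replicate 3, the library with high Adipoq and Ptprc described above, and without it the ratio was 19.5 (3.19 to 803.7) and the adjusted p 0.0406.

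In colon, Islr2 with Islr (PB.12615), a pair of immunoglobulin-like leucine-rich repeat genes, had 0.312, 0.337 and 0.373 FPKM in females and 1.33, 1.42 and 1.06 in males (male higher by 1.74 ± 0.32 on the log2 scale, adjusted p = 0.00872). Pld5, the only gene counted in PB.705, had 0.364, 0.360 and 0.345 FPKM in females and 1.08, 1.21 and 1.00 in males (1.47 ± 0.28, 0.0123). Igtp with Irgm2 (PB.1710), interferon-induced GTPases, had 25.8, 69.9 and 31.4 FPKM in females and 10.3, 14.9 and 15.1 in males (-1.83 ± 0.35, 0.0104). The sexes did not overlap at any of these loci. The immune marker Cd74 lay at 83.9 to 130 FPKM in female and 161 to 242 in male colon and the fat marker Adipoq at 52.7 to 78.5 and 6.75 to 56.0, and their part in these differences was not tested. Without female colon replicate 2 only the Islr2 with Islr call remained (adjusted p = 0.0465), and without male colon replicate 2 only that of Igtp with Irgm2 (0.0456), which was lost without male colon replicate 1 (0.117). The log2 differences of the lost calls were 1.51 (Pld5) and -1.20 (Igtp with Irgm2) without female colon replicate 2. They were 1.62 (Islr2 with Islr) and 1.35 (Pld5) without male colon replicate 2, and -1.64 (Igtp with Irgm2) without male colon replicate 1. With a term for the decade of the library code number in the labels, none of the 3 loci was called (0.631, 0.266 and 0.210). The log2 differences were then 1.12, 1.64 and -1.66. However, no decade held both sexes, so code and sex cannot be told apart. The interaction of sex with tissue called 2 joined loci (0.0167% of all features), Jakmip1 and Islr2 with Islr, with 36 at an unadjusted p under 0.05. Both calls were lost with RLE scaling, a replicate block or the library code term, as given below.

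The libraries held between 11742417 and 36194255 counts. Of the 17 genes checked for sex and tissue, all but Gdf9 matched the labels. Gdf9, an oocyte gene, was read through the Iso-seq locus PB.1670 that the map pairs with it. That locus lay at 22.2 to 241 FPKM in all libraries and did not mark ovary, and the part of Gdf9 in it was not measured. Zp3 lay at 0.838 to 4.82 FPKM in ovary, above all other tissues. Tnni3, the heart marker, was itself counted in a joined locus. Female heart replicate 3, with the fat and immune markers given above, had a TMM factor of 1.12 against 0.604 to 0.711 in the other hearts, and without it 421 joined loci were called in heart.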

How the data were processed

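The values are whole-number read counts per gene or Iso-seq locus, as the authors deposited them, without normalization, for 29 libraries. No more than these columns of per-sample values were in the table. FastQC 0.11.8, MultiQC 0.9, HISAT2 2.0.5 and featureCounts 1.6.3 are named in the submitters' processing notes. Whether counting used strand is not given in the sources used here, so a locus and its antisense neighbour may share reads. Transcript positions are those of the deposited annotation on GRCm38, which the authors made from corrected, collapsed Iso-seq transcripts and completed with ENSEMBL genes. The paper names Gffcompare for the comparison of Iso-seq isoforms with Ensembl models, but which overlaps entered the deposited map of genes to loci is not given in the sources used here, and 29 loci paired in it had no transcript in the annotation. GENCODE release M21 gave names, biotypes, read-through tags and exon positions. Sequences are those of its transcripts. The values of 1 joined locus are not reported here by name.

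Members and lists were chosen with earlier results of these data known. Counts of all features were filtered on low values (29911 kept, 563 joined loci) and fitted once with edgeR 4.0.16 in R 4.3.3 (TMM, quasi-likelihood, a mean per tissue and sex), with Benjamini–Hochberg adjustment over all 29911 and a threshold of 0.05. Tissues weighed both sexes equally. The fit was tested on simulated counts, and in the heart comparison it recovered 51% of genes changed 2-fold and 76% of those changed 4-fold, with 5.93% false calls. In male against female heart these were 15%, 56% and 4.05%. The simulated libraries shared the same expression profile apart from a small set of changed genes. The tissues here differ in far more genes, so these rates may not hold for them. FPKM used the total count and the union of exons.

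Loci were named by rule: those joining the most genes, the most abundant ones, the smallest adjusted p among loci without overlap in each tissue, the sex calls, the pseudogene loci, the most abundant loci whose genes lie apart and are linked, and the most abundant with a read-through gene. Alternatives were RLE scaling, DESeq2 1.42.0, no filter, a replicate block, a library code term, a 2-fold limit, each library left out, and stricter definitions of a spanning transcript. Replicate numbers did not pair the libraries: deviations from group means correlated from -0.259 to 0.155 for the same number (median -0.00197) and from -0.236 to 0.279 for other numbers. No pair of libraries of a group agreed within sampling noise (chi-square per gene of 11.1 to 323 over 28 pairs).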

Additional observations from a re-analysis of the deposited data

Results flagged for a closer look

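The sex difference of 2 joined loci varied between brain, cerebellum, heart and colon by the interaction test (edgeR's quasi-likelihood test, Benjamini–Hochberg adjusted p = 0.0452 for both). PB.9188 (Jakmip1 with Gm1043) was lower in male than in female heart, with 1 count in 2 male libraries against 61 in 3 female ones, while in colon it had 1.09, 1.12 and 1.27 FPKM in females and 1.73, 2.28 and 1.71 in males. PB.12615 (Islr2 with Islr) was higher in male colon, and in cerebellum it had 1.06, 0.786 and 0.822 FPKM in females and 0.549, 0.288 and 0.406 in males. Both adjusted p-values lie just under the threshold. They were 0.0524 with RLE scaling, 0.0674 with a replicate block, and 0.141 and 0.0780 with the library code as a term. Leaving out 1 library at a time ended the call of PB.9188 in 25 of 29 cases (adjusted p of 0.00638 to 0.502, the highest without male heart replicate 2, which leaves 1 male heart library) and that of PB.12615 in 24 of 29 (0.0181 to 0.148, the highest without male colon replicate 2).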

How the results depend on the processing

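Tissue counts of joined loci stayed within 1.5 times under RLE scaling, DESeq2, no filter and the library code term. Requiring a 2-fold change as well left 192 in brain, 168 in cerebellum, 224 in heart, 208 in colon, 151 in ovary and 295 in testis. Leaving out each library gave 388 to 418 in brain, 366 to 391 in cerebellum, 375 to 422 in heart, 406 to 433 in colon, 293 to 349 in ovary and 426 to 465 in testis. The replicate numbers pair nothing by the check of deviations, and the fit with the replicate block called 407, 374, 408, 422, 328 and 449 loci in these tissues, 0, 0, 1 and 3 by sex, and 0 for the interaction. Sex calls depended on the setting: heart had 3 with DESeq2 (PB.9188 was not among them), 5 with the library code term and 0 to 4 without a library, and colon had 8, 0 and 1 to 5. Without male heart replicate 1 or 2 heart had 0, with 1 male library left that was assumed to vary like the other groups, and without female heart replicates 1, 2 and 3 it had 3, 4 and 2. Colon had 5 without female colon replicate 1 or 3 or female heart replicate 3. The interaction called 6 with DESeq2, 0 with RLE or the code term and 0 to 2 without a library, and brain and cerebellum stayed at 0 by sex. Spanning loci numbered 114, and 93 with at least 50 shared bases, 48 where an intron of each gene was required, 54 counting only loci whose genes lie apart, and 109 with read-through genes left out, a definition added after the data were seen. With TMM scaling, 114 loci were highest in heart and 51 in ovary. Of 28 tests of named loci, none reversed. Low counts leave wide intervals, as for PB.9188 in heart. Each decade of the library code held 1 sex, so its term cannot separate code from sex in the sex, ovary and testis comparisons.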
